A study of Homo sapiens with 52 samples.

Results

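The contactins and the L1 family are cell adhesion molecules of the immunoglobulin superfamily that sit on axons and dendrites. All 10 genes of the group that were asked for were found among the 63241 genes of the count table by their Ensembl identifiers: the contactins CNTN1, CNTN2, CNTN3, CNTN4, CNTN5 and CNTN6, and the L1 family members CHL1, L1CAM, NRCAM and NFASC. Their messages were measured by RNA-seq in neurite and soma fractions of i3Neurons, human neurons made from the induced pluripotent stem cell line WTC11 by a doxycycline-inducible programme. The neurons carried a guide RNA for CRISPR interference (an inactive Cas9 that represses the gene a guide matches), or no guide. The groups were TDP-43 knockdown (5 libraries per fraction) with its nontargeting-guide controls (5 per fraction), HNRNPA1 knockdown (6 per fraction) with its own nontargeting-guide controls (6 per fraction), and untreated cells (4 per fraction). Neurons were replated on day 3 of doxycycline onto coated inserts with 1 µm pores and were harvested on day 17. All groups came from the same parent line. Whether the libraries of 1 group came from separate cultures is not in the labels. The p-values therefore rest on the spread among libraries, part or all of which may be technical.

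Contactins are held in the membrane by a glycosylphosphatidylinositol anchor and have no cytoplasmic part, so they act with partners in the same or the facing membrane. L1 family members span the membrane and bind ankyrin through their cytoplasmic tails, which ties them to spectrin and actin. In axons these molecules take part in outgrowth, fasciculation and pathfinding, and in the assembly of nodes of Ranvier and the axon initial segment.

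Of 52 libraries 51 were used: sample 5 of the TDP-43 knockdown soma had a total of only 541 counts and was dropped, which leaves n = 4 in that group. Library totals ran from 6257922 to 28902344 counts in the knockdown experiments, from 2541925 to 4346122 counts in untreated neurites and from 5212152 to 10519656 counts in untreated soma. The targeted messages checked the labels: TARDBP, the gene of TDP-43, averaged 41.8 ± 4.26 CPM (counts relative to the library total, scaled by TMM; SD, n = 5) in TDP-43 knockdown neurites and 116.9 ± 7.26 CPM in their controls (n = 5), and 19.5 ± 0.927 CPM in knockdown soma (n = 4) and 110.6 ± 4.59 CPM in control soma (n = 5). HNRNPA1 averaged 201.1 ± 15.99 CPM in HNRNPA1 knockdown neurites and 589.6 ± 32.6 CPM in their controls, and 140.8 ± 9.35 CPM in knockdown soma and 361.2 ± 20.7 CPM in control soma (SD, n = 6 each). All 12 neuron markers averaged 1 CPM or more in every group. Libraries of untreated cells were made with version 2 of the library kit and those of the knockdown experiments with version 3, so kit and experiment cannot be told apart.

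The members divided into genes read at high level everywhere and genes near the floor. To compare levels between genes, CPM were divided by the exon length of each gene in kilobases (CPM per kb). In TDP-43 knockdown neurites the order of this level was L1CAM at 122.3 ± 10.4, CNTN1 at 92.01 ± 7.49, NRCAM at 44.3 ± 4.56, NFASC at 38.1 ± 2.27 and CNTN5 at 5.29 ± 0.177 CPM per kb (SD, n = 5). No library of L1CAM overlapped one of CNTN1 there, whereas NRCAM and NFASC overlapped. The same 5 genes led in all 10 groups. L1CAM stood first in all 8 groups of the knockdown experiments, although in TDP-43 control neurites its libraries overlapped those of CNTN1. Untreated cells had a different order, with CNTN1 first at 156.6 ± 11.8 CPM per kb in neurites and 112.2 ± 6.55 CPM per kb in soma (SD, n = 4 each). The next level in untreated neurites was NRCAM at 36.6 ± 2.83 CPM per kb, and in untreated soma L1CAM at 28.0 ± 3.48 CPM per kb, which overlapped NRCAM.

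CNTN2, CNTN3, CNTN4, CNTN6 and CHL1 were low throughout. CNTN2, also called TAG-1, an axonal contactin, averaged between 1.555 CPM (TDP-43 control soma) and 12.9 CPM (untreated soma). CNTN3 and CNTN4 averaged 11.8 ± 2.36 and 3.80 ± 1.52 CPM in untreated neurites and 17.4 ± 2.15 and 7.25 ± 2.28 CPM in untreated soma (SD, n = 4 each). In the knockdown experiments CNTN3 averaged from 0.470 to 2.02 CPM and CNTN4 from 0.130 to 0.889 CPM. TMM was run within each experiment, so untreated and knockdown CPM are not on a common scale. Relative to the library total alone, CNTN3 averaged 7.63 and 25.9 CPM in untreated neurites and soma, and 0.386 to 2.50 CPM elsewhere. CNTN4 then averaged 2.50 and 10.8 CPM in untreated neurites and soma, and 0.162 to 0.993 CPM elsewhere. CHL1, the close homologue of L1, averaged 1.64 ± 0.388 CPM in untreated neurites and 7.01 ± 3.21 CPM in untreated soma, and at most 0.341 CPM in the other groups. CNTN6 averaged 1.096 ± 0.463 CPM in untreated neurites and 5.43 ± 1.84 CPM in untreated soma, and at most 0.308 CPM elsewhere. It had 0 counts in 6 HNRNPA1 knockdown neurite libraries, which allows up to 0.0652 CPM, and 0 counts in 4 TDP-43 knockdown soma libraries, which allows up to 0.0357 CPM. These limits cover counting error only and are relative to the library totals without TMM.

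Beside these low genes, untreated neurite libraries held at least 5 counts for 15810 ± 2501 genes and untreated soma libraries for 38552 ± 3061 genes (SD, n = 4 each), against group means from 19259 to 27116 in the knockdown experiments. Summed markers of mesenchymal cells (7 genes) ran from 6.32 to 14.9 CPM in untreated neurites and from 13.5 to 28.6 CPM in untreated soma, with 5 of 7 genes averaging 1 CPM or more in both. In the knockdown experiments the sum ran from 0.730 to 8.35 CPM, with at most 2 of 7 genes averaging 1 CPM or more in any group. Microglia markers (5 genes) summed to 2.56 to 9.37 CPM in untreated neurites and 10.1 to 18.4 CPM in untreated soma, against 1.177 to 5.595 CPM in the knockdown experiments. Markers of astrocytes and oligodendrocytes (10 genes) summed to 44.2 to 49.3 CPM in untreated neurites and 45.0 to 62.2 CPM in untreated soma, against 12.2 to 36.2 CPM in the knockdown experiments. Cycling markers (6 genes) summed to 51.2 to 60.9 CPM in untreated neurites, 22.8 to 36.6 in untreated soma and 7.64 to 32.5 elsewhere. Neural progenitor markers (7 genes) were lower in untreated cells, at 225.6 to 264.6 CPM in neurites and 84.9 to 91.3 in soma. Elsewhere they ran from 355.8 to 723.5 and from 178.7 to 365.4 CPM. Pluripotent markers (6 genes) summed to 6.62 to 15.1 CPM in untreated cells and 3.57 to 21.1 elsewhere. The sums are also scaled within each experiment, so the size of the gaps between untreated and other cells depends on the scaling. The part of these lists in the levels of CHL1, CNTN6, CNTN3 and CNTN4 was not tested. CNTN4 and CHL1 also share exon sequence with antisense genes. No source used here gives the strand setting of the counting, so reads of these partners cannot be told apart. Of the 10 members, 7 passed the filter on low counts in each knockdown experiment; CNTN4, CNTN6 and CHL1 did not and have no test there.

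**Figure D1:**
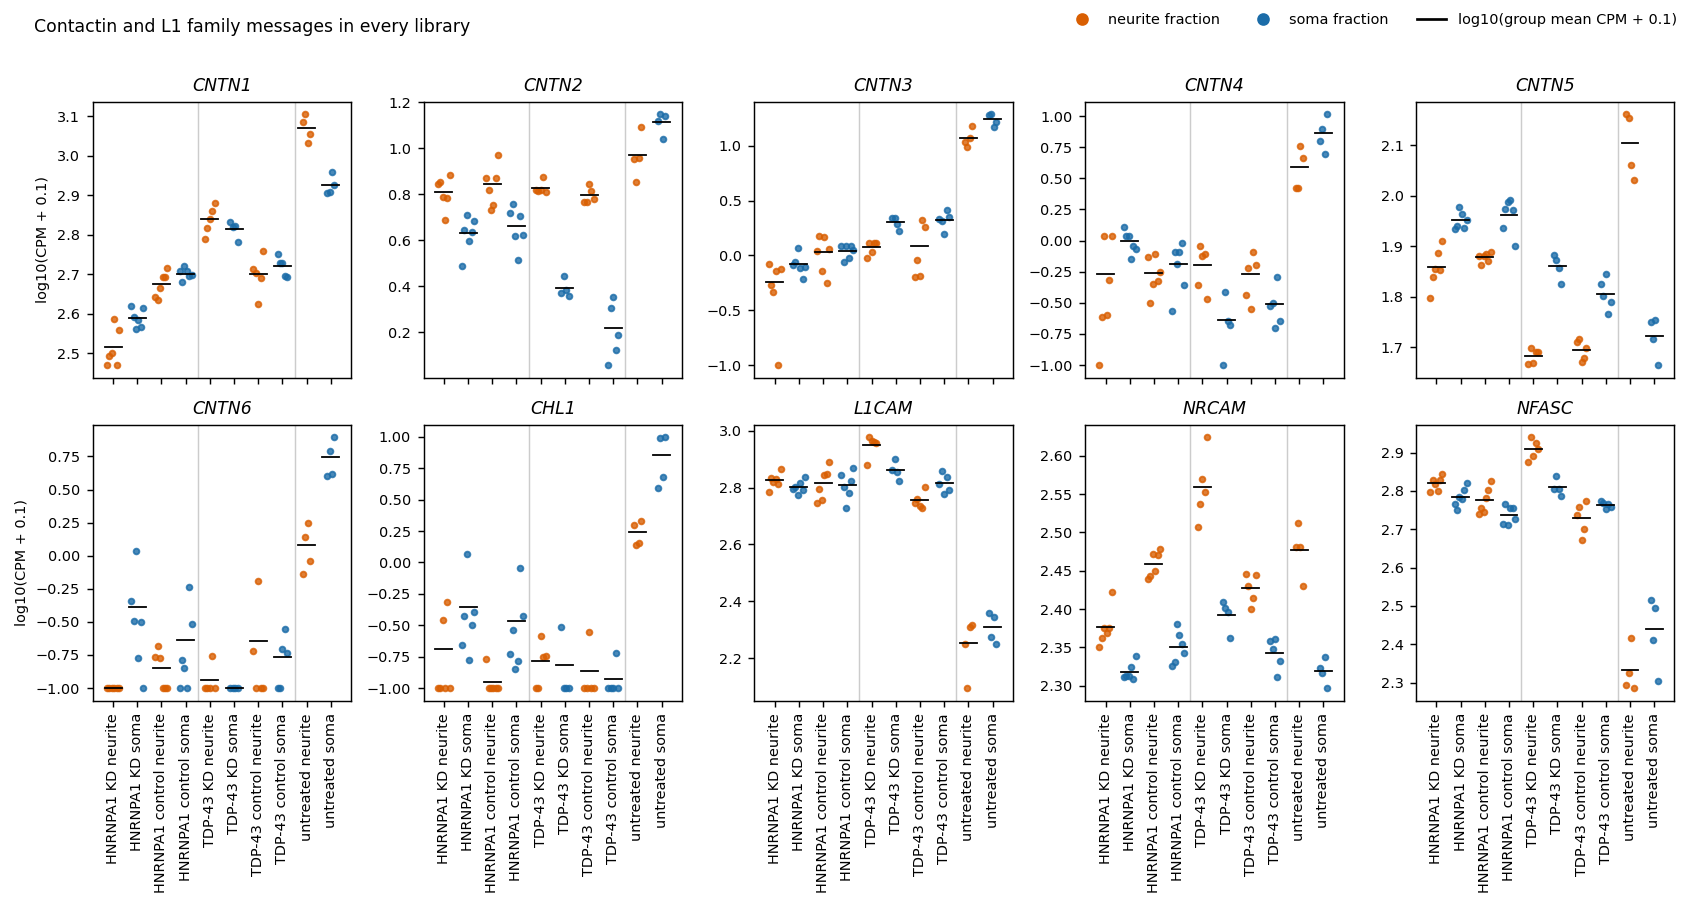
Level of each of the 10 members in every library, as log10(CPM + 0.1) on separate vertical scales, with neurite libraries in orange, soma libraries in blue and a line at each group mean. CNTN3, CNTN4, CNTN6 and CHL1 are highest in the untreated groups, and L1CAM and NFASC are lowest there. CPM are scaled within each experiment.

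TDP-43 binds UG-rich RNA, and hnRNPA1 is known to bind UAGGG. To show what such letters look like in the members, 1 annotated transcript per gene (GENCODE release 29, GRCh38) was searched on its own strand for TGTGTG and TAGGG, with overlapping matches counted. TGTGTG occurred at 5 positions in NFASC, all in the 3′ untranslated region, at 3 positions each in CNTN2, CNTN3 and NRCAM, at 2 each in CNTN4 and CHL1, and at 1 each in CNTN1 and CNTN5. L1CAM and CNTN6 had no match in these transcripts. A run is shown from each of 4 members that passed after TDP-43 knockdown in neurites or soma. CNTN5, which passed in soma, also has a run of 7 bases in its 3′ untranslated region and is not shown. The longest run, 9 bases, lies in the 3′ untranslated region of CNTN3, which passed in neither fraction. Whether such runs go with a change was not tested. Capitals mark the run of alternating T and G.
NFASC (3′ untranslated region, chr1:205021807-205021836, + strand): tgtgatcagccTGTGTGTGgttcacccagt
NRCAM (5′ untranslated region, chr7:108240075-108240104, − strand): aaggaaattcaGTGTGTGagtctcagcagg
CNTN1 (coding sequence, chr12:40936837-40936866, + strand): ctctactggcctTGTGTGgccacaggaaag
CNTN2 (coding sequence, chr1:205062500-205062529, + strand): ggcatgtaccaGTGTGTGgcagagaataag
TGTGTG lay in the last 1000 bases of 2 of the 10 member transcripts (CNTN2 and CNTN3), against 37.57% of 17890 coding genes. TAGGG lay there in 6 of 10 (CNTN1, CNTN2, CNTN3, CNTN4, CHL1 and L1CAM), against 38.32%. A match describes these letters and is not a binding site.

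After TDP-43 knockdown, messages of 3 of the 4 L1 family genes and of CNTN1 rose in neurites; the fourth, CHL1, was too low to test. L1CAM (chrX:153861514-153886174, − strand, GRCh38), the founding member of its family and a homophilic receptor of growing axons, had 757, 948, 922, 915 and 902 CPM in TDP-43 knockdown neurites, against 557, 576, 541, 536.5 and 631 CPM in control neurites. All 5 knockdown libraries were above all 5 controls, and 1 knockdown library lay below the other 4. The log2 change was 0.64 ± 0.07 (SE; adjusted p = 1.05e-07, edgeR quasi-likelihood test adjusted over all 22014 genes tested), a 1.56-fold higher level.

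NFASC (chr1:204828651-205022822, + strand) encodes neurofascin, whose isoforms hold the axon initial segment and the paranodal junction together. It had 749, 870.3, 777, 839 and 813 CPM in knockdown neurites, against 546, 571, 469.7, 503 and 592 CPM in control neurites. The groups did not overlap, and the log2 change was 0.59 ± 0.06 (SE; adjusted p = 6.87e-08, edgeR). NRCAM (chr7:108147623-108456717, − strand), a partner of neurofascin at nodes and an axon guidance co-receptor, had 321, 344, 372, 357 and 421 CPM in knockdown neurites, against 279, 269, 251.5, 259 and 278.5 CPM in control neurites. The lowest knockdown library stood above the highest control, with a log2 change of 0.44 ± 0.06 (SE; adjusted p = 5.97e-06, edgeR). CNTN1 (chr12:40692442-41072418, + strand), the contactin that binds neurofascin from the axon side of the paranode, had 616, 655.5, 691, 726 and 759 CPM in knockdown neurites, against 515, 505, 421, 491 and 574 CPM in control neurites. These groups did not overlap either, and the log2 change was 0.46 ± 0.07 (SE; adjusted p = 2.46e-05, edgeR).

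Thus 4 of the 7 tested members rose and none fell in TDP-43 knockdown neurites, where 24.8% of all genes tested passed (14% higher and 10.9% lower). These 4 did not overlap between the groups, and neither did 13.7% of all genes tested. The remaining 3, CNTN2, CNTN3 and CNTN5, had log2 values of 0.14 ± 0.14, −0.02 ± 0.33 and −0.05 ± 0.06 (SE) and did not pass. The median of the 7 was 0.44, against −0.03 over all genes tested. In bulk libraries, fewer cells of a type and less RNA per cell cannot be told apart. The 7SL RNA took 9.45 ± 7.61% of counts in TDP-43 knockdown neurites and 18.1 ± 7.81% in control neurites (SD, n = 5 each), and its part in these changes was not tested. With library sizes in place of TMM all 4 genes passed, with log2 values from 0.51 to 0.71, and the median over all genes was 0.04. The library size itself includes the 7SL counts, so this scaling cannot decide the part of 7SL.

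In soma CNTN1, CNTN2 and CNTN5 passed. CNTN1 had 679, 658, 662 and 603 CPM in TDP-43 knockdown soma, against 562, 535.5, 536.5, 495 and 493 CPM in control soma, with no overlap and a log2 change of 0.31 ± 0.08 (SE; adjusted p = 0.00357, edgeR). CNTN2 had 2.26, 2.68, 2.31 and 2.18 CPM in knockdown soma, against 1.04, 1.93, 2.15, 1.221 and 1.44 CPM in control soma. Its groups did not overlap, at a log2 change of 0.615 ± 0.16 (SE; adjusted p = 0.0066, edgeR), on 244 counts in knockdown soma and 167 counts in control soma. CNTN5, which is known from the auditory and visual pathways, had 76.1, 74.6, 72.0 and 66.8 CPM in knockdown soma, against 66.7, 63.3, 69.96, 58.2 and 61.4 CPM in control soma. Its groups overlapped and the log2 change was 0.18 ± 0.06 (SE; adjusted p = 0.0232, edgeR). With the replicate number as a block, CNTN5 no longer passed (0.16, adjusted p = 0.107, edgeR), nor did it without control soma sample 5 or 6 or without knockdown soma sample 1, 2 or 3, with values from 0.15 to 0.18. So 3 of 7 tested members rose in soma, where 18.9% of all genes tested passed (9.41% higher and 9.53% lower). With library sizes in place of TMM, CNTN2 alone among the 7 passed. With the replicate number as a block, 2 of 7 rose and 3150 of all 22014 genes passed, against 4170 without it. L1CAM, NRCAM and NFASC had log2 values of 0.15 ± 0.07, 0.17 ± 0.07 and 0.15 ± 0.07 (SE) in soma, with adjusted p of 0.175, 0.0757 and 0.12 (edgeR). Groups did not overlap in soma for CNTN1, CNTN2, NRCAM and NFASC, as for 21.8% of all genes tested.

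**Figure D2:**
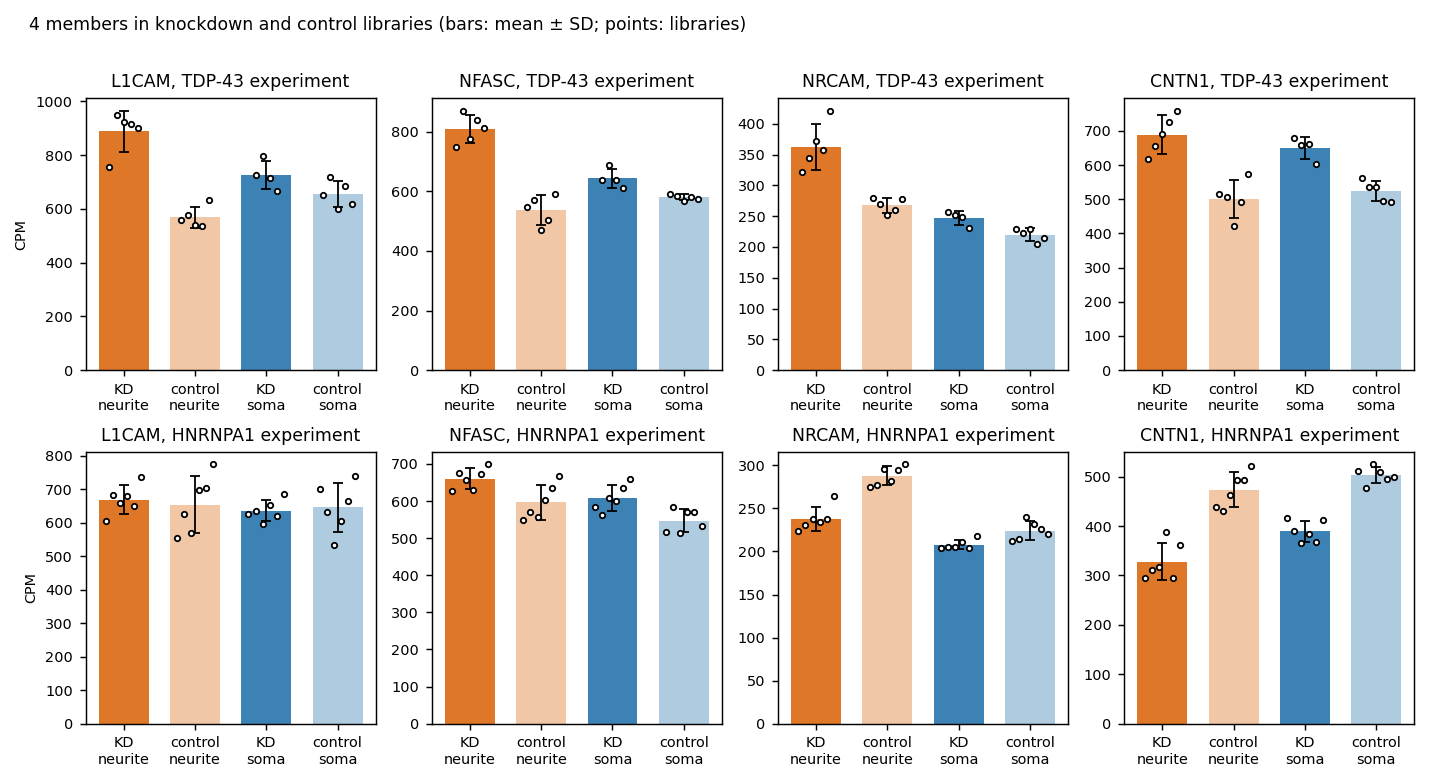
CPM of L1CAM, NFASC, NRCAM and CNTN1 in the TDP-43 experiment (upper row) and the HNRNPA1 experiment (lower row), with bars for group means, error bars for the SD and points for libraries; KD means knockdown. In the TDP-43 experiment all 4 genes are higher in knockdown neurites than in control neurites without overlap, and in the HNRNPA1 experiment CNTN1 is lower in both fractions and NRCAM is lower in neurites.

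Whether the TDP-43 knockdown effect differed between neurites and soma was tested by the interaction term, the log2 change in neurites minus that in soma. It passed for 2 of 7 tested members, L1CAM at 0.49 ± 0.10 (SE; adjusted p = 0.00272, edgeR) and NFASC at 0.44 ± 0.09 (adjusted p = 0.00295, edgeR), where 10.5% of all genes tested passed (5.81% higher and 4.67% lower). NRCAM, at 0.27 ± 0.09, had adjusted p = 0.0512 (edgeR) and 0.0297 in DESeq2, and it passed in edgeR without knockdown neurite sample 1 or 2, control neurite sample 1 or control soma sample 5. CNTN1 had 0.15 ± 0.10, CNTN5 −0.22 ± 0.08 and CNTN2 −0.48 ± 0.21, with adjusted p of 0.401, 0.0797 and 0.154 (edgeR). With library sizes in place of TMM no member passed, L1CAM at 0.56 (adjusted p = 0.189, edgeR) and NFASC at 0.49 (adjusted p = 0.258, edgeR). Without control soma sample 4, 4 members passed, the others being CNTN2 at −0.62 and CNTN5 at −0.26. Nuclear-retained noncoding RNAs moved with this term: 5 of 5 tested were lower, with a median of −0.50, and their sum ran from 1717 to 1962 CPM in TDP-43 knockdown neurites and from 2147 to 2875 CPM in control neurites, against 2904 to 3572 CPM in knockdown soma and 2582 to 3001 CPM in control soma. With library sizes 0 of these RNAs passed (median −0.45). Their part in the L1CAM and NFASC results was not tested.

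After HNRNPA1 knockdown CNTN1 fell in both fractions and NRCAM fell in neurites. CNTN1 ran from 295 to 387 CPM (median 314) in HNRNPA1 knockdown neurites, against 431 to 521 CPM (median 478) in control neurites. In soma it ran from 365 to 416.5 CPM (median 388) after knockdown, against 478 to 525 CPM (median 505) in controls (n = 6 each). Neither fraction showed overlap. The log2 change was −0.53 ± 0.06 in neurites (SE; adjusted p = 2.74e-07, edgeR) and −0.37 ± 0.06 in soma (adjusted p = 0.000105, edgeR). NRCAM ran from 224 to 264.5 CPM (median 235.5) in knockdown neurites, against 274.9 to 301 CPM (median 288) in control neurites. Every knockdown library lay below every control, and the log2 change was −0.27 ± 0.05 (SE; adjusted p = 8.75e-05, edgeR).

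These were 2 of 7 tested members in neurites, both lower, where 16.2% of all genes tested passed (8.96% higher and 7.21% lower), and 1 of 7 in soma, where 7.09% passed (3.79% higher and 3.3% lower). Groups did not overlap for 6.8% of all genes in neurites and 4.07% in soma. L1CAM ran from 606 to 735 CPM in knockdown neurites, against 555 to 774 CPM in control neurites, and its log2 value was 0.03 ± 0.07 (SE; adjusted p = 0.826, edgeR). NFASC had log2 values of 0.14 ± 0.06 in neurites and 0.15 ± 0.06 in soma, with adjusted p of 0.0745 and 0.0964 (edgeR). The interaction term passed for 0 of 7 members in edgeR and in DESeq2, where 0.177% of all genes tested passed in edgeR (0.0454% higher and 0.131% lower); at an unadjusted p under 0.05 it held NRCAM alone (−0.17 ± 0.07). The largest estimate was that of CNTN3, −0.98 ± 0.36 in neurites (adjusted p = 0.0611, edgeR). It rests on 18 counts in 6 knockdown libraries and 60 counts in 6 control libraries. It passed without control neurite sample 3 or 5 (−1.125 each). No knockdown neurite library held more than 4 counts, so CNTN3 passed the filter mainly through other libraries and its value is a description.

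**Figure D3:**
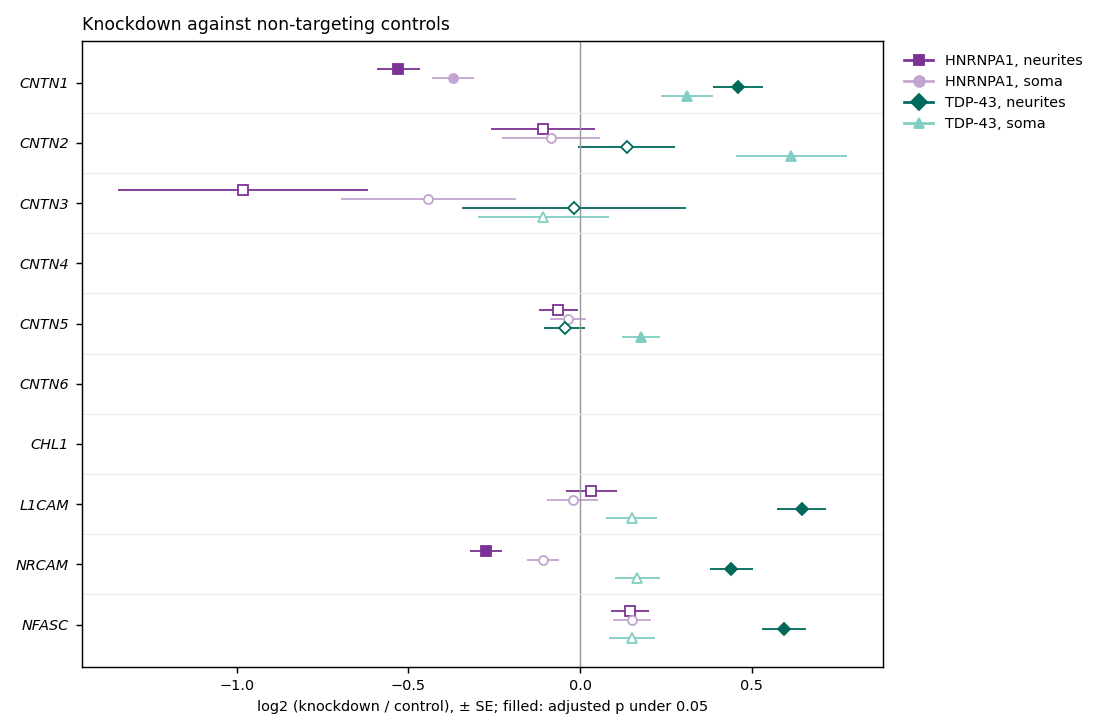
Log2 change of each member after knockdown, in neurites and in soma, with the standard error of the fit; filled symbols passed adjusted p under 0.05 and genes without symbols were not tested. CNTN1 lies at −0.53 and −0.37 after HNRNPA1 knockdown and at 0.46 and 0.31 after TDP-43 knockdown, while L1CAM and NFASC at 0.64 and 0.59 are filled only for TDP-43 knockdown neurites.

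The distribution between neurites and soma was then compared within each set of cells. NRCAM was higher in neurites than in soma in all 5 sets under TMM scaling, although with library sizes its sign turned in untreated cells, TDP-43 controls and HNRNPA1 knockdown cells and it did not pass in the other 2 sets. It had 303, 325, 303 and 269 CPM in untreated neurites, against 210.3, 207, 217 and 198 CPM in untreated soma, and no library overlapped. The log2 ratio of neurites to soma was 0.56 ± 0.07 in TDP-43 knockdown cells, 0.28 ± 0.06 in TDP-43 controls, 0.19 ± 0.05 in HNRNPA1 knockdown cells, 0.36 ± 0.05 in HNRNPA1 controls and 0.52 ± 0.09 in untreated cells (SE), with the weakest adjusted p = 0.00119 (edgeR, HNRNPA1 knockdown).

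CNTN2 was higher in neurites in all 4 sets of the knockdown experiments and was not called under TMM in untreated cells. It had 6.49, 6.42, 6.46, 7.40 and 6.32 CPM in TDP-43 knockdown neurites, against 2.26, 2.68, 2.31 and 2.18 CPM in knockdown soma. In TDP-43 controls it had 5.72, 5.73, 6.90, 6.41 and 5.92 CPM in neurites, against 1.04, 1.93, 2.15, 1.221 and 1.44 CPM in soma. Neither pair of groups overlapped, and the log2 ratios were 1.502 ± 0.15 and 1.98 ± 0.16 (SE; adjusted p = 1.26e-09 and 2.18e-11, edgeR). In the HNRNPA1 experiment the ratios were 0.59 ± 0.16 after knockdown and 0.61 ± 0.14 in controls, with overlapping groups, and neither passed with library sizes. In untreated cells it was −0.44 ± 0.19 (adjusted p = 0.0541, edgeR), and with library sizes −1.67, which passed (adjusted p = 1.02e-06, edgeR).

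CNTN5 took opposite sides. In untreated cells it had 144.7, 142, 114.9 and 107 CPM in neurites, against 56.2, 52.1, 56.7 and 46.1 CPM in soma, a log2 ratio of 1.25 ± 0.11 (SE; adjusted p = 2.88e-09, edgeR) that was 0.01 with library sizes and then did not pass. In all 4 sets of the knockdown experiments it was lower in neurites, with ratios of −0.59 ± 0.06 (TDP-43 knockdown), −0.36 ± 0.06 (TDP-43 controls), −0.31 ± 0.06 (HNRNPA1 knockdown) and −0.28 ± 0.05 (HNRNPA1 controls), and in none of them did neurite and soma libraries overlap. With library sizes these ratios were −1.13, −0.97, −0.75 and −0.63 in the same order, and all passed. CNTN1 had 1216, 1271, 1073 and 1132 CPM in untreated neurites, against 804, 808.5, 910.4 and 840.1 CPM in untreated soma, a log2 ratio of 0.48 ± 0.11 (SE; adjusted p = 0.000748, edgeR) that turned to −0.77 with library sizes. In HNRNPA1 knockdown cells its ratio was −0.25 ± 0.06 (SE; adjusted p = 0.00185, edgeR), and in the other 3 sets it did not pass under TMM.

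L1CAM and NFASC passed as higher in neurites in TDP-43 knockdown cells and in no other set, with ratios of 0.29 ± 0.08 and 0.33 ± 0.07 (SE; adjusted p = 0.00171 and 0.000158, edgeR), and both signs turned with library sizes (−0.25 and −0.22, neither called). In TDP-43 controls L1CAM was lower in neurites (−0.20 ± 0.07, adjusted p = 0.0197, edgeR), a call that was lost without control neurite sample 5 (−0.18) or control soma sample 2 (−0.17); with library sizes it was −0.81 and passed. In untreated cells NFASC had 196.6, 211, 260.0 and 193 CPM in neurites, against 328, 258, 312 and 202 CPM in soma. These overlapped, and the ratio of −0.35 ± 0.14 (SE; adjusted p = 0.0339, edgeR) did not pass in DESeq2 or without any one of 5 of the 8 libraries (neurite samples 4, 5 and 7 and soma samples 4 and 6, −0.22 to −0.28). With library sizes it was −1.58 and passed (adjusted p = 4.54e-08, edgeR). In the HNRNPA1 experiment neither gene passed in either set with TMM, and with library sizes both turned negative and passed (−0.34 and −0.23 in controls, −0.37 and −0.32 after knockdown).

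Of the low members, CNTN6 had 1, 2, 5 and 2 counts in untreated neurites and 60, 78, 56 and 60 counts in untreated soma, and CHL1 had 3, 2, 4 and 5 counts in neurites and 59, 125, 65 and 76 counts in soma. Their levels did not overlap between the fractions, and the log2 ratios were −2.19 ± 0.43 and −2.07 ± 0.45 (SE; adjusted p = 0.000239 and 0.000624, edgeR). With at most 5 counts in any neurite library, both passed the filter on low counts through soma alone. A call for either could therefore only be lower in neurites, and the size of these ratios is a description. CNTN3 at −0.54 ± 0.17 and CNTN4 at −0.80 ± 0.32 also passed in untreated cells (adjusted p = 0.0123 and 0.0389, edgeR), with overlapping groups. CNTN4 had 4, 4, 17 and 11 counts in untreated neurites and 96, 99, 68 and 79 counts in untreated soma. Its passage of the filter therefore rested mainly on soma, and its ratio is a description too. The CNTN3 call was lost without neurite sample 4, 5 or 6 (−0.38 to −0.42), and the CNTN4 call without neurite sample 4, 5 or 7 or soma sample 5 or 7 (−0.58 to −0.77). With library sizes the untreated ratios were −3.41 for CNTN6, −3.29 for CHL1, −1.76 for CNTN3 and −2.02 for CNTN4, and all passed. CNTN3 was also lower in neurites in TDP-43 knockdown cells (−0.79 ± 0.26) and in TDP-43 controls (−0.88 ± 0.26).

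In all, 6 of 7 tested members passed in TDP-43 knockdown cells (4 higher and 2 lower in neurites), where 57.7% of all genes tested passed (28.7% higher and 29% lower), and 5 of 7 in TDP-43 controls (2 higher, 3 lower), where 46.5% passed (24.1% higher and 22.3% lower). In HNRNPA1 knockdown cells 4 of 7 passed (2 higher, 2 lower), where 35.8% of all genes passed (19.4% higher and 16.4% lower), and in HNRNPA1 controls 3 of 7 (2 higher, 1 lower), where 48.4% passed (23.5% higher and 24.9% lower). In untreated cells 8 of 10 passed (3 higher, 5 lower), where 56.5% of all genes passed (28.7% higher and 27.8% lower). The 5 lower include CNTN6 and CHL1, which passed the filter through soma alone and could only be called lower. They also include CNTN4, whose passage of the filter rested mainly on soma. Neurites and soma did not overlap for 46.8% of all genes in TDP-43 knockdown cells, 31.1% in TDP-43 controls, 18.8% in HNRNPA1 knockdown cells, 24.3% in HNRNPA1 controls and 51.5% in untreated cells. The untreated count was 5 without neurite sample 4 and also without neurite sample 5.

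**Figure D4:**
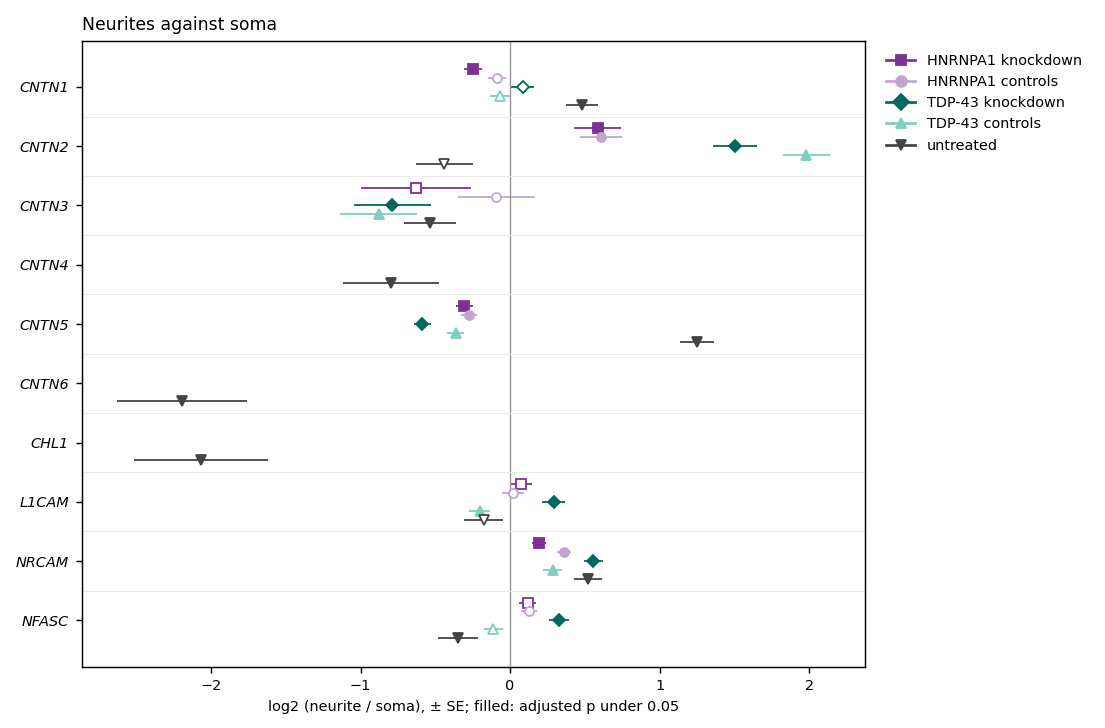
Log2 ratio of neurites to soma for each member in the 5 sets of cells under TMM scaling, with the standard error of the fit; filled symbols passed adjusted p under 0.05. NRCAM is right of 0 in all 5 sets and CNTN5 is right of 0 in untreated cells only; with library sizes in place of TMM, NRCAM lies left of 0 in untreated cells, TDP-43 controls and HNRNPA1 knockdown, and CNTN1, L1CAM and NFASC in all 5 sets.

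The neurite to soma ratio of untreated cells was tested against that of each set of controls; both tests share the untreated libraries, and kit and experiment cannot be told apart. Against TDP-43 controls, the difference in log2 ratio was 1.42 ± 0.12 for CNTN5 and 0.35 ± 0.11 for CNTN1, and −2.60 ± 0.27 for CNTN2, −2.03 ± 0.59 for CNTN4 and −0.42 ± 0.14 for NFASC (SE; adjusted p from 1.51e-13 to 0.0177, edgeR). Against HNRNPA1 controls it was 1.26 ± 0.11 for CNTN5 and 0.30 ± 0.11 for CNTN1, and −1.31 ± 0.25 for CNTN2, −0.74 ± 0.14 for NFASC and −0.46 ± 0.15 for L1CAM (adjusted p from 1.06e-12 to 0.0289, edgeR). So 5 of 10 members passed in each. CNTN4, CNTN6 and CHL1 did not pass the filter on low counts in either knockdown experiment. They entered these tests through the untreated libraries, where their levels were highest, so the CNTN4 call is a description. Of all genes tested, 37.5% passed against TDP-43 controls (13.5% higher and 24.1% lower) and 37.1% against HNRNPA1 controls (13.1% higher and 24% lower). The CNTN1 difference turned negative with library sizes in both (−0.08 and −0.30). The medians over all genes were −0.48 against TDP-43 controls and −0.41 against HNRNPA1 controls, so the NFASC difference of −0.42 against TDP-43 controls and the L1CAM difference of −0.46 against HNRNPA1 controls lie near that of the median gene, and neither passed in DESeq2 (adjusted p = 0.105 and 0.205). The NFASC call was lost without untreated neurite sample 4 or 7 or untreated soma sample 4 or 6 (−0.33 to −0.38). Against HNRNPA1 controls 3 members passed without untreated neurite sample 5, when L1CAM (−0.32) and CNTN1 (0.27) did not. The CNTN1 difference there was also not called without untreated neurite sample 4, untreated soma sample 4 or 5 or control neurite sample 2 (0.27 to 0.28). The CNTN4 difference rests on 19 counts in TDP-43 control neurites and 23 counts in TDP-43 control soma.

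Partners of the 2 families were read beside them. Of 14 contactin partners, 10 rose and 1 fell in TDP-43 knockdown neurites, with a median log2 change of 0.50 against −0.03 over all genes tested. Of all genes tested, 14% rose and 10.9% fell there. Receptor NOTCH1 rose by 1.227 ± 0.21, the matrix glycoprotein tenascin-R (TNR) by 0.86 ± 0.09 and the proteoglycan neurocan (NCAN) by 0.80 ± 0.07, and tenascin-C (TNC) fell by 1.31 ± 0.13 (SE; weakest adjusted p = 8.63e-05, edgeR). NOTCH1 was low there, at 1.69 CPM in control neurites and 4.02 CPM in knockdown neurites. With library sizes 8 of the partners rose and 1 fell, where 1792 of all 22014 genes rose and 788 fell. In TDP-43 knockdown soma 7 rose and 2 fell (4 and 1 with library sizes), where 9.41% of all genes tested rose and 9.53% fell. The receptor phosphatase PTPRZ1, a ligand of CNTN1, rose by 0.85 ± 0.10 there and by 0.65 ± 0.12 in neurites. After HNRNPA1 knockdown 3 of 14 rose and 3 fell in neurites (3 and 6 with library sizes), and 2 rose in soma. Of all genes tested, 8.96% rose and 7.21% fell in these neurites, and 3.79% rose and 3.3% fell in soma. With library sizes 605 of 19812 genes rose and 3825 fell in these neurites. NOTCH1 (1.114 ± 0.17 in neurites) was among the risers, and the contactin-associated proteins CNTNAP4 (−0.67 ± 0.15) and CNTNAP2 (−0.34 ± 0.06) were among those that fell. In HNRNPA1 control and knockdown neurites NOTCH1 averaged only 2.69 and 5.91 CPM and CNTNAP4 5.64 and 3.63 CPM, while CNTNAP2 averaged 616 and 485 CPM. TNC rose by 1.39 ± 0.11 in HNRNPA1 knockdown neurites and 1.698 ± 0.14 in soma, while after TDP-43 knockdown it also fell in soma by 1.96 ± 0.20. CNTNAP3 rose in all 4 comparisons, by 0.98 ± 0.12 in neurites and 1.78 ± 0.10 in soma after TDP-43 knockdown and by 0.88 ± 0.08 and 1.04 ± 0.08 after HNRNPA1 knockdown (SE; weakest adjusted p = 5.43e-07, edgeR).

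Of 21 partners of the L1 family, 7 rose and 1 fell in TDP-43 knockdown neurites, with a median log2 change of 0.18. Of all genes tested, 14% rose and 10.9% fell there. With library sizes 5 of the partners rose. The cytoskeletal genes ANK1, an ankyrin (0.81 ± 0.07), and RDX, the linker radixin (0.48 ± 0.06), rose, and the semaphorin receptor PLXNA4 fell by 0.38 ± 0.07 (SE; weakest adjusted p = 0.000369, edgeR). In TDP-43 knockdown soma 7 rose and 2 fell, PLXNA4 by 0.96 ± 0.08 (2 and 1 with library sizes). There 9.41% of all genes tested rose and 9.53% fell. After HNRNPA1 knockdown 2 rose and 4 fell in neurites (2 and 13 with library sizes), and 2 rose and 3 fell in soma. The shares of all genes tested were 8.96% higher and 7.21% lower in these neurites, and 3.79% and 3.3% in soma. With library sizes 605 of 19812 genes rose and 3825 fell in these neurites. Moesin (MSN, 1.006 ± 0.14) and ezrin (EZR, 0.998 ± 0.09), which link membrane proteins to actin, rose in neurites, while ankyrin-G (ANK3, −0.42 ± 0.09) and ankyrin-B (ANK2, −0.28 ± 0.09) fell.

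Other neuronal adhesion molecules were also read. Of 23 such genes, 17 rose and 2 fell in TDP-43 knockdown neurites (median log2 change 0.39), and 10 rose and 5 fell in soma. With library sizes these counts were 13 and 1 in neurites and 5 and 3 in soma. Under TMM 14% of all genes tested rose and 10.9% fell in these neurites, and 9.41% rose and 9.53% fell in soma. CADM3, a synaptic adhesion molecule, rose by 1.123 ± 0.06, DSCAM, a receptor of neurite self-avoidance, by 1.08 ± 0.11 and LSAMP by 0.81 ± 0.07, and DSCAML1 fell by 0.71 ± 0.18 (SE; weakest adjusted p = 0.00373, edgeR). After HNRNPA1 knockdown 5 rose and 7 fell in neurites (0 and 14 with library sizes), and 4 rose and 6 fell in soma (1 and 7). Under TMM 8.96% of all genes tested rose and 7.21% fell in these neurites, and 3.79% rose and 3.3% fell in soma. With library sizes 605 of 19812 genes rose and 3825 fell in these neurites, and 494 rose and 719 fell in soma. In neurites NEGR1 fell by 0.63 ± 0.07 and ALCAM by 0.54 ± 0.06.

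By fraction, L1 family partners were more often higher than lower in neurites under TMM scaling: 12 higher and 3 lower of 21 in TDP-43 knockdown cells, 9 and 6 in TDP-43 controls, 11 and 1 in HNRNPA1 knockdown cells, 13 and 3 in HNRNPA1 controls, and 12 and 3 in untreated cells. Under TMM, 28.7% of all genes tested were higher and 29% lower in TDP-43 knockdown cells, and 24.1% and 22.3% in TDP-43 controls. These shares were 19.4% and 16.4% in HNRNPA1 knockdown cells, 23.5% and 24.9% in HNRNPA1 controls, and 28.7% and 27.8% in untreated cells. With library sizes the L1 partner counts turned in all 5 sets, to 6 and 11, 5 and 13, 7 and 13, 7 and 11, and 4 and 14 in the same order. The whole table turned too under this scaling. Of 22014 genes, 2171 were higher and 13565 lower in TDP-43 knockdown cells, and 1891 and 14536 in TDP-43 controls. Of 19812 genes, 1155 were higher and 13377 lower in HNRNPA1 knockdown cells, and 1911 and 12129 in HNRNPA1 controls. Of 18556 genes in untreated cells, 2041 were higher and 14924 lower. The ankyrin genes ANK2 and ANK3 had log2 ratios of 1.145 ± 0.09 and 1.096 ± 0.08 in TDP-43 controls, 1.41 ± 0.09 and 1.36 ± 0.09 in HNRNPA1 controls, and 2.26 ± 0.14 and 1.67 ± 0.12 in untreated cells. Contactin partners were higher and lower in 6 and 4, 2 and 4, 5 and 6, 4 and 3, and 7 and 4 genes in the same sets of cells under TMM, and in 1 and 8, 1 and 12, 2 and 11, 1 and 8, and 0 and 12 genes with library sizes.

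Across the 10 group means, the log2 CPM of L1CAM and NFASC had a Pearson r of 0.994, and the next highest pair of the 7 members that passed the filter in all 3 experiments was CNTN1 and CNTN3 at 0.77. Groups share kit and experiment, so these are descriptions. The genes most like L1CAM over the same 10 groups, of 15989, were COL6A1, CORO2B and SLC38A10 (r = 0.998 each), those most like NFASC were HIC2, SEC61A1 and SNRNP200 (0.996 each), and those most like NRCAM were UGGT1 (0.993), HIVEP1 (0.971) and PLEKHM3 (0.965). CNTN1 was most like MPV17L (0.967), LINC00672 (0.951) and LHX1-DT (0.947). CNTN2 was most like PROM1 (0.953), THRB and UST, CNTN3 like UNC80 (0.984), DNAJC9-AS1 and an unnamed gene, and CNTN5 like STRADB (0.931), C1QBP and MRPL27.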

How the data were processed

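The deposited table holds expected counts per gene and library: the submitters' processing notes name STAR (2.7.11b), featureCounts from Subread (2.0.6) and build hg38. No source used here gives the annotation release, strand setting or handling of multi-mapping reads. Whole numbers (within 0.005) made up 81.103% of nonzero values, and all were rounded before testing. Input was 10 ng of RNA, per the labels' protocols. L1CAM shares exon sequence with LCA10 and U52112.1, and fractional values occurred in 34 libraries for CNTN1, 33 for L1CAM, 23 for NRCAM and 22 for NFASC, so their counts may be divided with other genes.

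Groups came from the sample titles. Each experiment was fitted alone with edgeR 4.0.16 in R 4.3.3 (TMM, filterByExpr, 1 coefficient per group, 2-sided quasi-likelihood F tests); untreated and control libraries were fitted together for the ratio differences. Adjustment was by Benjamini and Hochberg over all genes tested, with calls at adjusted p under 0.05. The ± after CPM or a percent is the SD, after log2 the SE. Alternatives were library sizes without TMM, no filter, the replicate number as a block, DESeq2 1.42.0 and each library left out in turn. The procedure was also run on simulated data, and no result above rests on that run. Positions and exon lengths came from GENCODE release 29. None of 108 pairs of libraries within groups was a copy by the chi-square of their counts. Members and lists were chosen with earlier results of these data known. Named genes are the 10 members, up to 4 called partners per list and comparison with the largest change, the 3 genes most like each member, and both targeted genes; PTPRZ1, NCAN, RDX, CNTNAP2, NEGR1, ALCAM, ANK2 and ANK3 were in part chosen after their values were seen.

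No main fit was paired. Same-numbered libraries were read as likely pairs where every pair's deviations from the group means correlated over 0.1. This held for TDP-43 knockdown neurites and soma (4 pairs, 0.149 to 0.293) and for TDP-43 knockdown and control soma (3 pairs, 0.146 to 0.305). It did not hold for TDP-43 knockdown and control neurites (4 pairs, −0.225 to 0.00077). The replicate block gave each number 1 effect in all groups of an experiment, so it is not a fit of these pairs alone. The labels give the numbers and do not say what they share.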

Additional observations from a re-analysis of the deposited data

Results flagged for a closer look

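Of 76 sets of 4 to 6 libraries examined, 3 held a library far from the rest of its group by Dixon's criterion, which chance meets in about 1 in 20 sets. L1CAM stood at 757 CPM in TDP-43 knockdown neurite sample 1, with the next library at 902 CPM. CNTN2 stood at 7.40 CPM in TDP-43 knockdown neurite sample 4, with the next at 6.49 CPM. NRCAM stood at 264 CPM in HNRNPA1 knockdown neurite sample 6, with the next at 237 CPM.

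The remaining values are tested differences between 2 effects. The TDP-43 knockdown effect in neurites minus that in soma was 0.494 for L1CAM and 0.441 for NFASC on the log2 scale. The neurite to soma log2 ratio of untreated cells minus that of HNRNPA1 controls was 0.299 for CNTN1, −1.31 for CNTN2, 1.26 for CNTN5, −0.458 for L1CAM and −0.740 for NFASC. Minus that of TDP-43 controls it was 0.353 for CNTN1, −2.60 for CNTN2, −2.03 for CNTN4, 1.42 for CNTN5 and −0.424 for NFASC. CNTN4 entered this test only through the untreated libraries.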

How the results depend on the processing

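The 4 members that rose in TDP-43 knockdown neurites and the CNTN1 and NRCAM calls after HNRNPA1 knockdown passed under library sizes, no filter, the replicate block, DESeq2 and each library left out. Scaling moved the fraction results most. With library sizes in place of TMM, the median log2 ratio of all genes moved from −0.21 to −1.43 in untreated cells, −0.03 to −0.63 in TDP-43 controls, −0.05 to −0.40 in HNRNPA1 controls, −0.03 to −0.56 after TDP-43 knockdown and −0.02 to −0.46 after HNRNPA1 knockdown, and the share of calls that were higher in neurites from 50.8 to 12%, 51.9 to 11.5%, 48.6 to 13.6%, 49.7 to 13.8% and 54.2 to 7.95%. The ratio differences' medians moved from −0.41 to −1.01 (HNRNPA1 controls; 35.3 to 12% of calls higher) and −0.48 to −0.92 (TDP-43 controls; 35.8 to 15.5%), and that of HNRNPA1 knockdown neurites from 0.00 to −0.14 (55.4 to 13.7%, and 42.2% with no filter). The share of higher calls also moved from 53.5 to 40.7% in HNRNPA1 knockdown soma, 56.2 to 69.5% in TDP-43 knockdown neurites, 55.4 to 39.6% in the TDP-43 interaction and 25.7 to 9.86% in the HNRNPA1 interaction; in DESeq2 it was 52.9 and 47.6% for the ratio differences. Among log2 values of members called under either scaling, those that changed sign were CNTN1 (−0.77) and NRCAM (−0.72) in untreated cells; L1CAM (−0.34) and NFASC (−0.23) in HNRNPA1 controls; NRCAM (−0.33) in TDP-43 controls; L1CAM (−0.37), NRCAM (−0.25) and NFASC (−0.32) after HNRNPA1 knockdown; CNTN1 (−0.45), L1CAM (−0.25) and NFASC (−0.22) after TDP-43 knockdown; and the CNTN1 ratio differences (−0.30 and −0.085). Also with library sizes, members called fell to 1 in TDP-43 knockdown soma and to 0 in the TDP-43 interaction. Genes called were then 16965 (10483 with TMM) in untreated cells, 16427 (10232) in TDP-43 controls, 14532 (7092) in HNRNPA1 knockdown cells, 1677 (4170) in TDP-43 knockdown soma, 2580 (5470) in TDP-43 knockdown neurites, 328 (2306) in the TDP-43 interaction and 71 (35) in the HNRNPA1 interaction, which had 140 with no filter, 54 with the replicate block, 72 in DESeq2 and 12 to 73 with each library left out; beyond the change of scaling itself, the cause was not tested. With each library left out, members called ranged from 5 to 8 in untreated cells, 2 to 4 in the TDP-43 interaction and 3 to 6 in the ratio difference against HNRNPA1 controls. Where the numbers were not shown to pair the libraries, the replicate block added NFASC in HNRNPA1 controls (0.12, adjusted p = 0.0399, edgeR) and in HNRNPA1 knockdown neurites (0.15, adjusted p = 0.0393, edgeR); apart from CNTN5 in TDP-43 knockdown soma it changed no other member's call. In TDP-43 knockdown soma the block moved L1 family partners called higher from 7 to 5. DESeq2 ended the calls of NFASC in untreated cells and against TDP-43 controls and of L1CAM against HNRNPA1 controls. Depth limits CNTN6, CHL1 and CNTN4, which had 10, 14 and 36 counts in the 4 untreated neurite libraries.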
